A study of Arabidopsis thaliana with 6 samples.

Results

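The 210 organelle-encoded genes of the table were chosen by their identifiers: 88 start with ATCG and lie in the chloroplast genome, and 122 start with ATMG and lie in the mitochondrial genome. The table lists 27371 genes in all, of which the other 27161 are called nuclear here. RNA came from whole seedlings, aged 14 days, of the Arabidopsis thaliana insertion line ahl13-1 (SALK_014014), which carries an insertion in AHL13, a gene for an AT-hook DNA-binding protein. The seedlings grew under long days on MS plates without sugar at 23 °C. There were 3 control libraries, whose treatment the labels do not describe further, and 3 libraries from seedlings sprayed with a Pst hrcC suspension (OD600 of 0.002) and taken after 24 hours. Pst hrcC is a Pseudomonas syringae pv. tomato strain that lacks a working type III secretion system. All 6 libraries carry the same insertion, and wild-type plants were not analysed here.

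Chloroplasts and mitochondria keep small genomes of their own. The chloroplast genome encodes core subunits of the photosystems, of the cytochrome complex between them and of the ATP synthase, together with ribosomal proteins and RNA polymerase subunits. The plant mitochondrial genome encodes some subunits of the respiratory chain and ATP synthase, proteins that mature cytochrome c, ribosomal proteins and many open reading frames without a known product. Nuclear genes supply the remaining subunits and most factors for transcription and RNA processing in both organelles. Organelle messengers are cut from long shared transcripts, and a poly(A) tail marks many of them for decay, whereas it stabilises nuclear messengers. The labels call these mRNA libraries, but how messengers were selected is not stated in them.

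The reference annotation does not pair ATCG or ATMG identifiers with gene symbols. Its notes on nuclear relatives cite 60 of the 210 identifiers and give a product for 6 chloroplast and 24 mitochondrial ones, not counting products noted as unknown. Genes outside these notes are therefore given by identifier alone. Levels are FPKM (fragments per kilobase of transcript, scaled to the mapped fragments of a library), and a gene is called read in a library where its deposited FPKM is above 0. The depths of the libraries relative to control 1, estimated from the steps between the lowest nuclear values, were 4.91 and 2.85 for control 2 and 3 and 4.56, 3.81 and 0.812 for Pst hrcC 1, 2 and 3. Between 38.9% and 76.4% of these steps were whole, so the depths are approximate. Summed FPKM per library ranged from 550765 to 2156590, and 1 nuclear gene, AT2G01021, held 15.6% to 52.0% of it.

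Most chloroplast genes were read in every library, and most mitochondrial genes were not. Of the 88 chloroplast genes, 64 (72.7%) were read in all 6 libraries, 21 in some and 3 in none. Of the 122 mitochondrial genes, 35 (28.7%) were read in all 6, 68 in some and 19 in none. Among the nuclear genes 20102 (74.0%) were read in all 6 libraries and 2927 in none. The chloroplast share was thus close to the nuclear one, and the mitochondrial share was below both. The 3 chloroplast genes read nowhere were ATCG00210, ATCG00510 and ATCG00590.

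**Figure D1:**
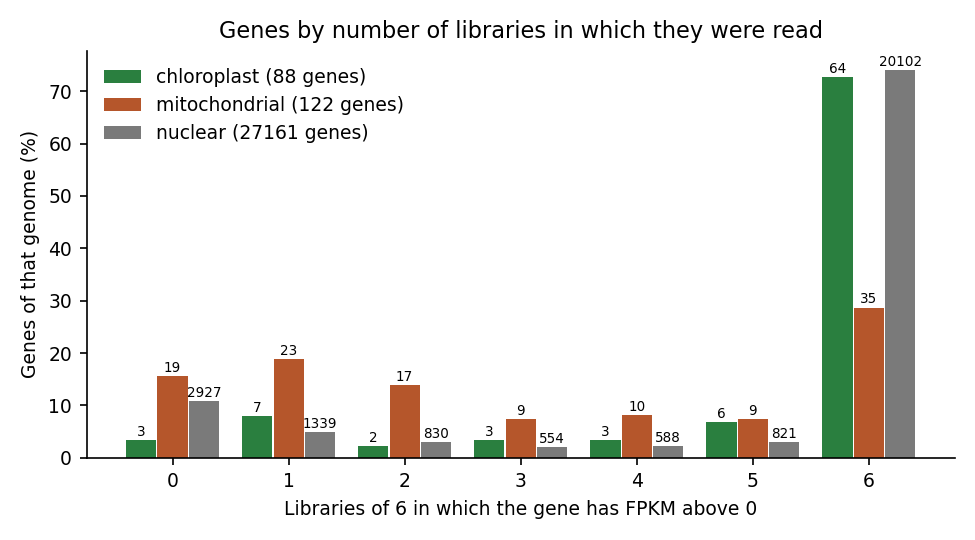
Percentage of chloroplast, mitochondrial and nuclear genes (vertical axis) by the number of libraries, of 6, in which the gene had an FPKM above 0 (horizontal axis), with gene counts above the bars. Chloroplast genes collect at 6 libraries (64 of 88), while mitochondrial genes spread over all numbers (35 at 6, 23 at 1 and 19 at 0).

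The number of mitochondrial genes read was smallest in the libraries of lowest depth. The controls read 51, 69 and 70 mitochondrial genes, and the Pst hrcC libraries read 76, 71 and 42. Control 1 and Pst hrcC 3, the shallowest libraries, held the 2 lowest numbers. For chloroplast genes the numbers were 70, 73 and 77 in the controls and 76, 78 and 72 after Pst hrcC. Among the 4 deeper libraries alone, 70 chloroplast and 51 mitochondrial genes were read in each. How far depth sets these numbers was not tested. At a level of at least 1 FPKM, 51 chloroplast and 12 mitochondrial genes passed in all 6 libraries.

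Mitochondrial genes read in a single library were all low there. These 23 genes had from 0.0999 FPKM (ATMG00550) to 1.05 FPKM (ATMG01210) in the library that read them. In contrast, 6 of the 7 chloroplast genes read in 1 library were at 21548 FPKM or more in it; the other, ATCG01270, was at 2.23 FPKM. Another 2 mitochondrial genes were listed at values close to 0. ATMG00520 lay between 3.7e-07 and 3.53e-05 FPKM in all 6 libraries, and ATMG01330 lay between 2.95e-08 and 7.56e-06 FPKM in the 5 that listed it above 0. Counting a gene as read only above 0.001 FPKM left 64 chloroplast and 34 mitochondrial genes read everywhere.

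Detection varied between groups of noted mitochondrial products. These groups hold only genes that the notes on nuclear relatives name, so none need be a complete set for its function. The genes noted as ATP synthase, the enzyme that makes ATP from the proton gradient, were read in all 6 libraries for 5 of 5. Genes noted as respiratory chain subunits were read in all 6 for 5 of 7, ribosomal proteins for 2 of 4 and cytochrome c maturation for 1 of 3. ATMG00560, whose note gives a protein fold and no function group, was read in all 6 but counted in none of these groups. None of the 21 genes noted as of unknown product was read in every library, and 5 were read in none. Another 77 mitochondrial genes had no noted product, either without a note or noted only for a nuclear pseudogene. Of these, 20 were read in all 6 libraries and 13 in none. Among the chloroplast genes with a noted product, 5 of 6 were read in every library. The exception was ATCG00660, noted as ribosomal protein L20, which was at 5.13, 2.67 and 1.40 FPKM in the controls and 4.06, 2.51 and 0 FPKM in the treated libraries.

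The annotated chloroplast genes read everywhere lay at a few FPKM. ATCG00670, noted as the plastid-encoded ClpP, a subunit of the protease that degrades stromal proteins, was at 3.05, 1.97 and 4.97 FPKM in the controls and 3.12, 3.12 and 3.12 FPKM in the treated libraries. The ribosomal protein genes ATCG01310 (L2) and ATCG00750 (S11) differed in how far they varied. ATCG01310 was at 7.05, 6.03 and 8.26 FPKM in the controls and 8.89, 6.86 and 5.996 FPKM in the treated libraries, and its highest library exceeded its lowest 1.48-fold. ATCG00750 was at 6.93, 3.05 and 3.58 FPKM in the controls and 4.21, 4.67 and 0.885 FPKM in the treated libraries, lowest in Pst hrcC 3. The note on ATCG00430 reads photosystem II reaction center protein G, and this name was not checked. Its levels were 5.18, 3.85 and 4.01 FPKM in the controls and 5.60, 4.45 and 7.92 FPKM in the treated libraries. ATCG00530, noted as CemA-like, was at 3.92, 2.46 and 7.43 FPKM in the controls and 5.46, 3.47 and 7.36 FPKM in the treated libraries. The groups overlapped for each of these 5 genes.

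Among chloroplast genes read in every library, ATCG00020 had the highest median, 51.9 FPKM. It was at 38.9, 30.9 and 96.2 FPKM in the controls and 36.8, 64.8 and 76.2 FPKM in the treated libraries. ATCG00490 (median 48.6 FPKM) was at 45.3, 30.9 and 60.4 FPKM in the controls and 51.9, 58.7 and 36.3 FPKM in the treated libraries. ATCG00470 (median 40.2 FPKM) was at 38.3, 34.3 and 44.4 FPKM in the controls and 43.7, 36.1 and 42.1 FPKM in the treated libraries, the narrowest spread of the 64, with a ratio of highest to lowest of 1.29. The neighbours in this order overlapped: ATCG00330 (median 38.6 FPKM) was at 35.5, 28.5 and 69.5 FPKM in the controls and 35.7, 41.5 and 53.8 FPKM in the treated libraries. ATCG00140 (median 32.0 FPKM) was at 32.1, 10.01 and 35.8 FPKM in the controls and 21.5, 41.3 and 31.9 FPKM in the treated libraries. Control 2 held the lowest value of all 5 genes and control 3 the highest of 4, ATCG00140 being highest in Pst hrcC 2. The widest spread among the 64, chosen after its values were seen, was that of ATCG00070, at 21.1, 2.79 and 51.5 FPKM in the controls and 9.59, 13.4 and 26.3 FPKM in the treated libraries, an 18.5-fold range within the controls alone.

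Mitochondrial levels were lower, and 2 genes stood above the rest. ATMG00030 (median 34.2 FPKM) was at 26.2, 13.4 and 44.2 FPKM in the controls and 39.8, 39.8 and 28.6 FPKM in the treated libraries, and ATMG01000 (median 20.5 FPKM) was at 18.7, 10.8 and 41.0 FPKM in the controls and 18.3, 22.3 and 22.6 FPKM in the treated libraries. The next was ATMG00560, at 5.70, 7.57 and 8.33 FPKM in the controls and 9.01, 8.21 and 8.36 FPKM in the treated libraries. Its note, nucleic acid-binding and OB-fold-like, names a fold and not a function, and the product was not checked. ATMG00060 (median 6.46 FPKM) was at 4.93, 5.59 and 7.69 FPKM in the controls and 7.21, 7.23 and 5.71 FPKM in the treated libraries, and it varied least of the mitochondrial genes read everywhere, 1.56-fold. ATMG01080, noted as subunit 9 of the membrane part of ATP synthase, which forms its proton-driven ring, was at 3.32, 4.44 and 6.40 FPKM in the controls and 6.90, 6.25 and 6.60 FPKM in the treated libraries. The control and Pst hrcC values overlapped for each of the 5.

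**Figure D2:**
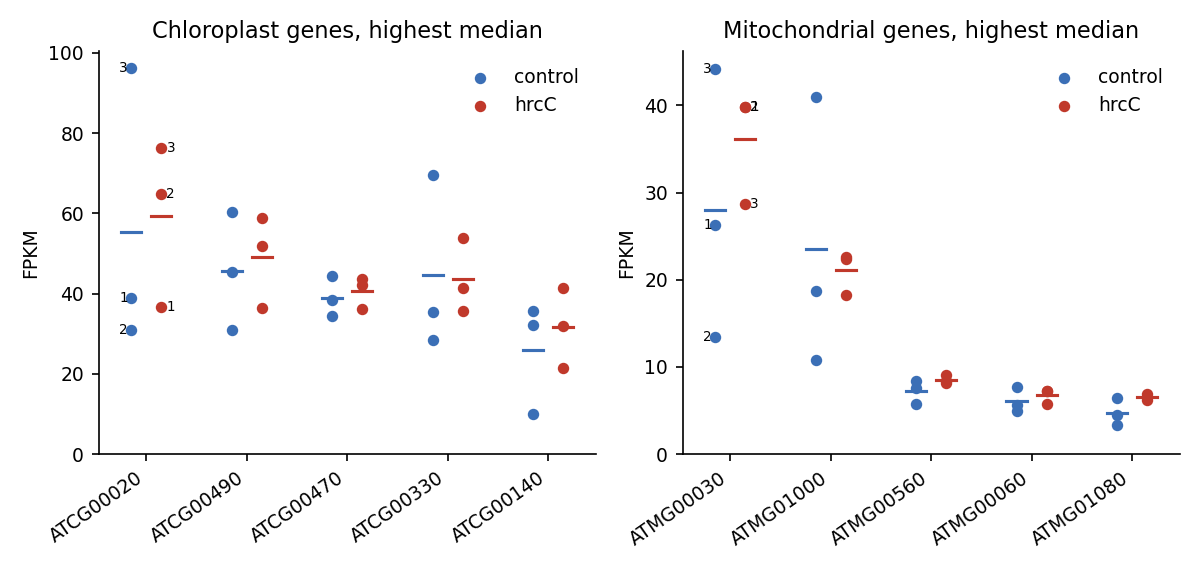
FPKM (vertical axis) of the 5 chloroplast and 5 mitochondrial genes with the highest median among genes read in all 6 libraries; each point is a library, blue for control and red for Pst hrcC, and bars are group means over 3 libraries. Replicate numbers stand beside the first gene of each panel, where ATCG00020 reaches 96.2 FPKM and ATMG00030 44.2 FPKM in control 3.

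The other annotated mitochondrial genes lay mostly under 2 FPKM. ATMG01190, noted as ATP synthase subunit 1, was at 1.37, 0.842 and 2.13 FPKM in the controls and 1.80, 1.75 and 0.724 FPKM in the treated libraries. ATMG00990, noted as NADH dehydrogenase subunit 3 of the first respiratory complex, was at 1.96, 1.47 and 6.02 FPKM in the controls and 2.05, 2.17 and 1.26 FPKM in the treated libraries. ATMG00730, noted as subunit 3 of cytochrome c oxidase, the last respiratory complex, was at 0.417, 0.426 and 1.02 FPKM in the controls and 0.887, 1.01 and 0.900 FPKM in the treated libraries. ATMG00220, noted as apocytochrome b, was at 0.134, 0.163 and 0.656 FPKM in the controls and 0.724, 0.315 and 0.826 FPKM in the treated libraries. In each of these 4 genes control 3 was the highest of the controls. ATMG00960 and ATMG00900, noted as cytochrome c assembly or biogenesis proteins, were read in 4 and 2 libraries and stayed under 0.5 FPKM.

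A separate set of chloroplast genes was either listed at 0 or very high. In all, 12 chloroplast genes exceeded 100 FPKM in some library, all 12 were listed at 0 in at least 1 other library, and no mitochondrial gene exceeded 100 FPKM anywhere. The values left a gap: the lowest maximum of the 12 was 2216 FPKM (ATCG01020), and the highest value of any other chloroplast gene was 96.2 FPKM (ATCG00020 in control 3). The controls read 1, 2 and 5 of the 12, and the Pst hrcC libraries read 4, 7 and 6. The 12 genes held from 72.0% (control 2) to 99.7% (Pst hrcC 2) of the summed chloroplast FPKM.

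Of the 12, 6 were read in 1 library only. ATCG00690 was at 68298 FPKM in control 1. ATCG00080 was at 21548 FPKM in Pst hrcC 1. ATCG00220 and ATCG00760 were at 27336 FPKM and 77301 FPKM in Pst hrcC 2. ATCG00600 and ATCG00065 were listed at the same value, 42740.3 FPKM, in Pst hrcC 3. Each library except control 2 and control 3 thus had its own such gene.

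The other 6 were read in 2 to 5 libraries. ATCG00560 was at 0, 0 and 0 FPKM in the controls and 0, 51508 and 38744 FPKM in the treated libraries. ATCG00550 was at 0, 859 and 10619 FPKM in the controls and 0, 0 and 0 FPKM in the treated libraries. ATCG00570 was at 0, 0 and 11856 FPKM in the controls and 13971, 15245 and 0 FPKM in the treated libraries. ATCG00700 was at 0, 0 and 61003 FPKM in the controls and 0, 37081 and 24023 FPKM in the treated libraries, read in control 3 and in 2 of 3 treated libraries. ATCG00630 was at 0, 0 and 101429 FPKM in the controls and 72919, 16198 and 43477 FPKM in the treated libraries, read in control 3 and in every treated library. ATCG01020 was at 0, 89.5 and 1627 FPKM in the controls and 645, 522 and 2216 FPKM in the treated libraries, listed at 0 in control 1 alone. No gene of the 12 was read in all libraries of one group and none of the other.

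**Figure D3:**
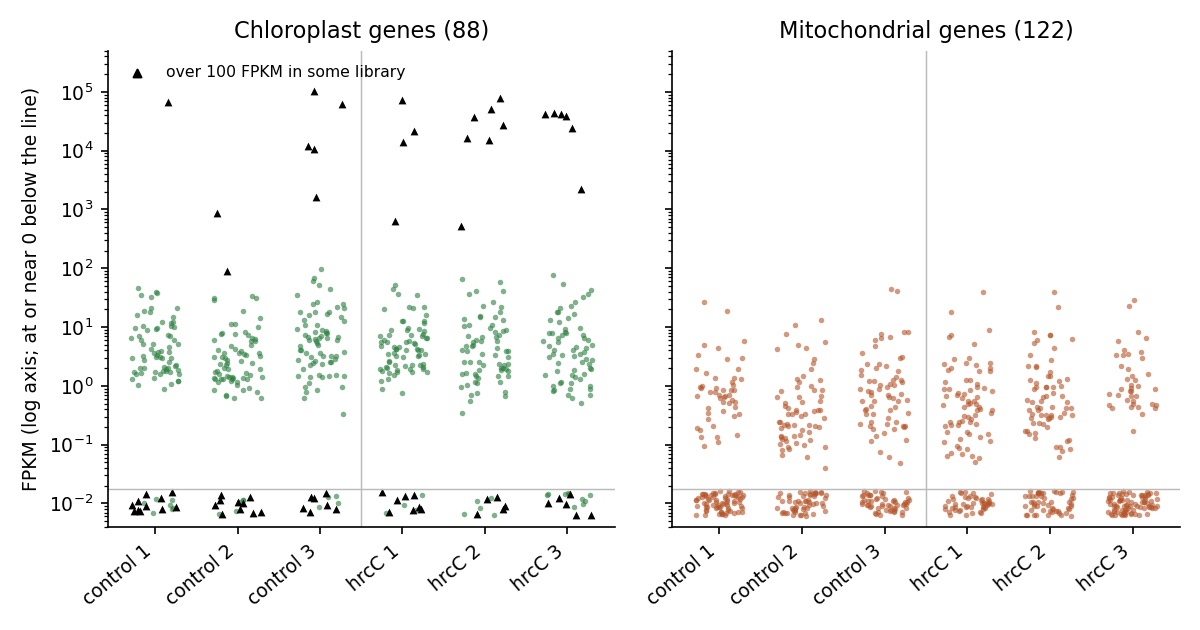
FPKM (vertical log axis) of all 88 chloroplast and 122 mitochondrial genes in each library (horizontal axis); points below the grey line are listed at or near 0 and drawn at spread heights there, and black triangles mark the 12 genes that exceed 100 FPKM in some library. The triangles lie either at 0 or above all other chloroplast genes, whose highest value is 96.2 FPKM, except for ATCG01020 in control 2 at 89.5 FPKM.

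Some of these values were shared with other genes. ATCG00550 in control 2, ATCG00080 in Pst hrcC 1, and ATCG00570 and ATCG00630 in Pst hrcC 2 each equalled the value of a nuclear gene in the same library to within a relative 2e-05. Those nuclear genes, AT4G31441, AT3G51642, AT2G01023 and AT2G12461, have spliced lengths of 123, 541, 120 and 135 bp in the reference annotation. The same alternation between 0 and high values occurred in the nuclear genome, where 43 genes exceeded 100 FPKM in 1 library and were listed at 0 in another. Of the 36 with an annotated length, 21 (58.3%) were under 300 bp, against 518 of 26703 (1.94%) of all nuclear genes with a length. The reference annotation holds 85 protein-coding chloroplast genes, 13 of them with a coding length under 150 bp, but it does not pair them with the identifiers. Whether the 12 genes are short, and what part length plays in their values, was not tested. Lower down, ATCG00650 and ATCG01070 were also listed at equal values in Pst hrcC 2 and 3.

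The share of summed FPKM held by chloroplast genes was higher in every treated library, and the 12 high genes carried that difference. It was 4.76%, 0.239% and 8.69% in the controls and 13.1%, 11.3% and 13.5% after Pst hrcC. The means were 4.56% ± 4.23 and 12.6% ± 1.18 (SD, n = 3 each), a difference of 8.07 percentage points, with a two-sided p = 0.1 by exact permutation, the smallest that 3 against 3 allows. Without the 12 genes the share was 0.0478% ± 0.0166 in the controls and 0.0461% ± 0.0186 after Pst hrcC (exact permutation p = 0.9). The summed FPKM of the other 76 chloroplast genes was 550, 368 and 827 in the controls and 559, 615 and 585 after Pst hrcC. Their means of 582 ± 231 and 587 ± 27.8 (SD, n = 3) differed by less than the spread between control libraries (exact permutation p = 0.9).

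Mitochondrial sums showed the same wide spread among controls. They were 98.5, 80.0 and 184 FPKM in the controls and 136, 149 and 117 FPKM after Pst hrcC, with means of 121 ± 55.6 and 134 ± 15.9 (SD, n = 3, exact permutation p = 0.7). As a share of all FPKM, mitochondrial genes held 0.00996% ± 0.00404 and 0.0106% ± 0.00486 (exact permutation p = 0.7). The sum of the 76 other chloroplast genes was 4.89 ± 0.601 times the mitochondrial sum in the controls and 4.42 ± 0.501 times after Pst hrcC (exact permutation p = 0.5). In whole seedlings, fewer cells or organelles and less RNA in each of them cannot be told apart in these sums.

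The control libraries differed from each other over many organelle genes. Over the 64 chloroplast genes read everywhere, the median log2 ratio of a library to the gene's mean was -0.01, -0.53 and 0.46 in control 1, 2 and 3. It was 0.18, 0.00 and -0.04 in Pst hrcC 1, 2 and 3. Control 2 was the lowest library for 35 of the 64 genes and control 3 the highest for 31. Over the 34 mitochondrial genes read everywhere above 0.001 FPKM, the medians were -0.47, -0.51 and 0.50 in the controls and 0.08, 0.24 and 0.13 after Pst hrcC. Control 1 was lowest for 17 of these 34 and control 3 highest for 17. The comparison set was the 18404 nuclear genes read everywhere that also stayed at or under 100 FPKM and above 0.001 FPKM and whose geometric mean lay in the range of the organelle genes, 0.226 to 52.5 FPKM. For these all 6 medians lay between -0.10 and 0.12.

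**Figure D4:**
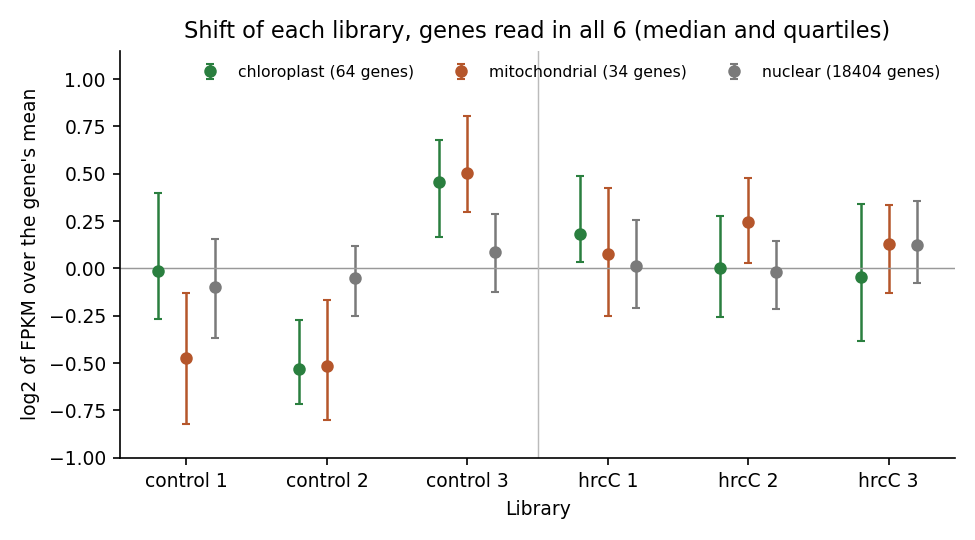
Log2 ratio of a library's FPKM to the gene's mean over 6 libraries (vertical axis), as the median (point) and quartiles (bars) over genes above 0.001 FPKM and at or under 100 FPKM in every library, for chloroplast (64), mitochondrial (34) and level-matched nuclear (18404) genes. Control 2 lies lowest for chloroplast genes (-0.53) and control 3 highest for both organelles (0.46 and 0.50), while nuclear medians stay between -0.10 and 0.12.

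Set directly against control 2, control 3 was higher for 58 of 64 chloroplast genes, with a median ratio of 2.02. It was higher for 33 of 34 mitochondrial genes, with a median ratio of 2.15, and the median ratio of the nuclear genes was 1.09. Control 1 did not set both organelles on the same side of control 2: it was higher for 55 of 64 chloroplast genes but for 14 of 34 mitochondrial genes. Same-numbered libraries did not give one direction. The median log2 ratio of Pst hrcC to the control of the same number was 0.17, 0.53 and -0.55 for chloroplast genes and 0.56, 0.72 and -0.41 for mitochondrial genes. Both organelles were thus higher after treatment in 2 of 3 pairs and lower in the third.

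Gene by gene, no organelle transcript was called changed after Pst hrcC. The test took genes whose mean reached 1 FPKM, 80 chloroplast and 20 mitochondrial ones, with limma on log2(FPKM + 1) and Benjamini-Hochberg adjustment over all 16923 genes tested. At an adjusted p under 0.05, 0 of these 100 genes passed, against 0.290% of all genes tested (0.284% higher and 0.00591% lower after treatment). At an unadjusted p under 0.05, 2 chloroplast genes were higher and 2 lower and no mitochondrial gene passed, against 6.81% of all genes tested (5.18% higher and 1.63% lower). The other 110 members, 8 chloroplast and 102 mitochondrial genes, lay under the minimum level.

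The median log2 difference was 0.06 over the tested chloroplast genes (47 positive, 33 negative) and 0.16 over the mitochondrial ones (15 positive, 5 negative), beside 0.04 over all genes tested. These medians followed single libraries. The chloroplast median was -0.11 without control 2, 0.31 without control 3 and 0.12 without Pst hrcC 3. The mitochondrial median was 0.04 without control 1 and 0.39 without control 3. Quantile normalization, which moved the median of all genes to -0.04, gave -0.01 for chloroplast and 0.09 for mitochondrial genes.

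The smallest p among organelle genes was that of ATCG00300. It was at 18.3, 4.93 and 16.8 FPKM in the controls and 5.56, 0 and 0 FPKM in the treated libraries, listed at 0 in 2 treated libraries, and Pst hrcC 1 lay within the range of the controls. Its log2 difference was -2.76 ± 0.83 (SE) with a limma adjusted p of 0.478, and it was -4.92 with a pseudocount of 0.1 and -1.42 with a pseudocount of 5. Without Pst hrcC 1 the adjusted p was 0.0451.

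ATCG00440 was the only tested member whose groups did not overlap, where 7.66% of all genes tested lay wholly above and 3.61% wholly below their controls. It was at 1.92, 1.44 and 0.328 FPKM in the controls and 4.02, 3.30 and 2.46 FPKM in the treated libraries. Its log2 difference was 0.99 ± 0.31 (SE) with a limma adjusted p of 0.509, so it did not pass the test. The difference was 0.66 without control 3, 1.59 with a pseudocount of 0.1 and 0.41 with a pseudocount of 5, none of them called. ATMG00810, which was too low to be tested, was likewise wholly above, at 0, 0.105 and 0 FPKM in the controls and 0.439, 0.539 and 0.326 FPKM in the treated libraries; it was chosen after its values were seen.

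The next 3 chloroplast genes by p were among the 12 that alternate between 0 and high values, ATCG00560, ATCG00550 and ATCG00630. Their limma adjusted p values were 0.685, 0.7 and 0.799. Each passed when 1 library was left out, which left one group wholly at 0 and the other wholly above it: ATCG00560 without Pst hrcC 1 (adjusted p = 5.5e-06), ATCG00550 without control 1 (adjusted p = 0.0393) and ATCG00630 without control 3 (adjusted p = 0.0113).

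Among mitochondrial genes the smallest p was that of ATMG01080, the ATP synthase subunit 9 gene described above. Its log2 difference was 0.44 ± 0.21 (SE) with a limma adjusted p of 0.841. ATMG01320, noted as NADH dehydrogenase subunit 2, was at 1.97, 2.42 and 3.03 FPKM in the controls and 2.81, 3.40 and 3.31 FPKM in the treated libraries, and its log2 difference was 0.27 ± 0.16 (SE) (adjusted p 0.949). ATMG00513 was at 0.928, 1.25 and 2.35 FPKM in the controls and 2.40, 2.22 and 1.90 FPKM in the treated libraries, and ATMG00080 was at 0.836, 1.151 and 1.89 FPKM in the controls and 2.48, 1.49 and 1.58 FPKM in the treated libraries. In each of these 4 genes control 1 was the lowest library. Without it the log2 differences of ATMG01080, ATMG01320, ATMG00513 and ATMG00080 were 0.26, 0.17, 0.21 and 0.18. For ATMG00560 the log2 difference was 0.23 ± 0.16 (SE) (adjusted p 1), and 0.09 without control 1.

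Reads of many mitochondrial genes can also come from the nucleus, because a copy of mitochondrial DNA lies on nuclear chromosome 2. Counting only pairs with FPKM listed for both genes, the annotation notes link 45 mitochondrial genes to nuclear genes of that region in 46 pairs. The notes also name nuclear pseudogenes there without a listed FPKM. The division of reads within a pair is uncertain. Both genes were read in all 6 libraries in 8 pairs. The median FPKM was higher in the nuclear gene in 20 pairs, higher in the mitochondrial gene in 16 and 0 in both in 10. The relative of ATMG01080, AT2G07671, was at 5.34, 2.52 and 6.55 FPKM in the controls and 2.59, 4.17 and 2.26 FPKM in the treated libraries. The relative of ATMG01190, AT2G07698, was at 0.990, 0.922 and 2.199 FPKM in the controls and 2.196, 1.80 and 0.703 FPKM in the treated libraries, close to the mitochondrial gene. AT2G07715, the relative of ATMG00560, was at 0.866, 1.08 and 1.22 FPKM in the controls and 0.859, 1.37 and 0.863 FPKM in the treated libraries, well under it.

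**Figure D5:**
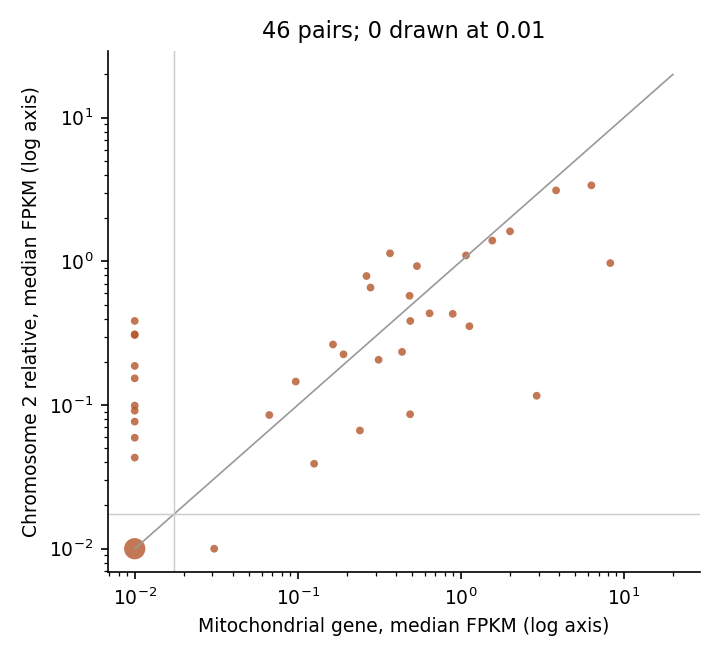
Median FPKM over 6 libraries of mitochondrial genes (horizontal log axis) and of their relatives on nuclear chromosome 2 (vertical log axis), for the 46 noted pairs with FPKM listed for both genes. Medians of 0 are drawn at 0.01, the grey diagonal marks equal levels and a larger point stands for several pairs. In 20 pairs the nuclear gene is higher, in 16 the mitochondrial gene is higher, and 10 pairs lie at 0 on both axes.

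Among nuclear genes that work with the organelle genomes, none was called changed, where 0.290% of all genes tested were. The 5 lists began with sigma factors of plastids and phage-type polymerases of either organelle (8 tested of 9). Next came proteins bound to the plastid RNA polymerase (12 of 12) and organelle RNA processing enzymes (5 of 6). Nuclear subunits of photosynthetic complexes (21 of 21) followed. The last list, of nuclear respiratory genes (10 of 10), held complex subunits and the alternative oxidase AOX1A. In these lists 0 genes passed the limma test at an adjusted p under 0.05. At an unadjusted p under 0.05 0 passed, against 6.81% of all genes tested. The median log2 differences of the lists were -0.00, 0.03, -0.04, -0.07 and 0.16, in this order. The summed FPKM of the photosynthetic subunits ran from 39275 to 41574 in the controls and from 35070 to 45522 after Pst hrcC; control 2 was at 39275 and control 3 at 40207. The summed FPKM of the respiratory genes, AOX1A included, ran from 282 to 298 in the controls. After Pst hrcC it ran from 303 to 327, so these sums did not overlap. Of the 10 genes 9 had a positive log2 difference, beside 9733 of all 16923 genes tested. The negative one was AOX1A at -0.45, and no gene of this list had an unadjusted limma p under 0.05. RBCS1A, a nuclear gene for the small subunit of Rubisco, was at 9205 ± 1216 FPKM in the controls (SD, n = 3), while the chloroplast genes read everywhere stayed under 100 FPKM. Of 9 root markers 8 were tested, 0 passed at an adjusted and 1 (EXPA18) at an unadjusted p under 0.05, and none was at 0 in every library. Of the tested markers 7 had a positive and 1 a negative log2 difference, with a median of 0.42. The negative one was IRT1 at -0.53. It was at 44.8, 14.5 and 35.6 FPKM in the controls and 28.6, 5.78 and 42.4 FPKM in the treated libraries. COBL9, EXPA7, EXPA18, PRP3, LRX1 and CASP1 were lowest in control 3, whereas NRT2.1, TIP2;3 and IRT1 were not. The summed FPKM of all 9 markers was 79.4, 48.5 and 51.5 in the controls and 64.5, 37.1 and 91.9 after Pst hrcC. The part of tissue proportions in the organelle values was not tested.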

How the data were processed

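The labels' protocols describe mRNA libraries from total RNA of whole seedlings, read from both ends. Tools named in the submitters' processing notes are FastQC, TopHat2 2.1.1 and Cufflinks 2.2.1, with the TAIR10 build; the annotation, the strand and the settings are not given in those notes. The authors deposited FPKM values per gene and library, which were not rescaled here. Groups came from the labels. Nothing says that replicates were separate cultures, so p-values measure the spread between these samples, which may be technical. FPKM keeps no counts, so depth is known only relatively, no count model was used, and an exact 0 is written as listed at 0.

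Product names came from notes in a RefSeq annotation of TAIR10.1; no coordinates or sequences are given. The 16923 genes whose mean reached 1 FPKM were tested on log2(FPKM + 1), a scale that understates changes of low genes. The test was limma 3.58.1 (R 4.3.3) with a mean-variance trend, treatment alone in the model and two-sided p-values. On simulated data of that size it recovered 42.8% of changes of 1 on the log2 scale and 90.4% of changes of 2, with 8.4 false calls on average. The simulation drew changed genes from the whole table with independent noise. These rates therefore need not hold for organelle genes, whose values shifted together between libraries. Sums and shares were compared with exact permutation tests.

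Members and lists were chosen with earlier results of these data known. Named genes are the 5 highest medians per organelle among genes read everywhere, genes over 100 FPKM in a single library, and the 5 smallest p per organelle; annotated genes and the others over 100 FPKM were added after their values were seen. A planned list of genes by symbol could not be applied. Both groups use the same replicate numbers. Over 16923 genes, libraries with the same number deviated together from their groups' means, with correlations of 0.43, 0.17 and 0.13 for numbers 1, 2 and 3. Control 3 and Pst hrcC 2, whose numbers differ, correlated at 0.21, above the values for numbers 2 and 3. Control 2 and Pst hrcC 3 correlated at 0.07, so numbers 2 and 3 were not clearly closer when matched than when crossed. Every crossed correlation with a number 1 library was negative. The same-number values all exceed 0.1, but the ground for pairing rests on number 1. It lies in the data and not in the labels. Same numbers served as pairs in the same-number ratios, the block fit, the sign-flip tests and the fit without replicate 1. The main limma fit and the exact permutation tests used no pairs. Alternatives are described in the closing section.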

Additional observations from a re-analysis of the deposited data

How the results depend on the processing

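Depth is known only approximately, and 3 libraries per group limit every test. At a level of at least 10 FPKM, 8 chloroplast genes passed in all libraries; at 1 and 10 FPKM, 12 and 2 mitochondrial genes did. Without the genes over 100 FPKM, chosen after seeing the data, the difference in chloroplast share was -0.00169 percentage points. The difference in mitochondrial share, 0.000621 percentage points, was -0.00121 without the most abundant gene of the table and -0.000192 without the most abundant mitochondrial gene; leaving out 1 library each gave -0.00218 to 0.00290. Leaving out 1 library each gave median log2 differences of -0.11 to 0.31 for chloroplast and 0.04 to 0.39 for mitochondrial genes. Scaling each organelle to its own sum, chosen after seeing the data, gave a median of -0.00600 for mitochondrial genes. Without the replicate 1 pair, also chosen after seeing the data, 2 of 94 organelle genes were called, ATCG00550 and ATCG00560, and 200 of all 16847 genes tested (1.19%, against 0.290% with every library); leaving out 1 library each gave 0 to 2 calls, 2 without Pst hrcC 1 (ATCG00300 and ATCG00560, beside 1.10% of all genes), 1 without control 1 (beside 0.142%) and 1 without control 3 (beside 0.0237%). With array weights limma called 0 organelle genes, and 407 of all genes (2.41%); at an unadjusted p under 0.05, 18 of the 100 were higher and 2 lower, beside 15.5% of all genes, and the medians were 0.32 and 0.30. The cause was not tested. With the replicate number as a block, 0 organelle genes were called (smallest adjusted p = 0.128), the medians stayed at 0.06 and 0.16, and the exact sign-flip p of the paired shares was 0.25 for chloroplast, the smallest it allows, and 1 for mitochondrial genes. Over all genes the block called 45 higher and 2 lower, against 48 and 1 without it, and it called 0 genes of the nuclear lists. Pseudocounts of 0.1 and 5 called 0 organelle genes but moved the log2 differences of single low genes. Alternatives restricted to genes of at least 300 bp were not run, since lengths are not paired with the organelle identifiers.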
